A study of Homo sapiens with 12 samples.

Results

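The genes FOS, FOSB, FOSL1, FOSL2, JUN, JUNB, JUND, ATF3, EGR1 and MYC encode the AP-1 transcription factors and the early response regulators that are usually studied with them. They were picked by symbol, are 10 of the 19516 genes with a symbol in the count table, and all 10 had enough reads to be tested. RNA was sequenced from 2 human triple-negative breast cancer lines, MDA-MB-231 and HCC1937, each cultured for 72 h without or with an aqueous extract of the succulent plant Kalanchoe pinnata, in 4 groups of 3 libraries. The study set out to describe transcripts tied to cell migration.

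MDA-MB-231 controls (libraries E1, E2 and E3) and extract libraries (E7, E8 and E9, at 140 µg/mL) came from cells grown in DMEM. HCC1937 controls (E25, E26 and E27) and extract libraries (E31, E32 and E33, at 66 µg/mL) came from cells grown in RPMI 1640. Both lines were labelled wild type and epithelial and were grown in 10% fetal bovine serum. Line, medium and concentration cannot be told apart in this design. Nothing in the labels tells whether the 3 libraries of a group came from separate cultures. The p-values therefore reflect the spread among these libraries, and that spread may be technical.

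AP-1 is a dimer of basic leucine zipper (bZIP) proteins. JUN, JUNB and JUND pair with each other or with FOS, FOSB, FOSL1 or FOSL2, which do not form stable dimers among themselves. The usual site of the pair fits the wider pattern TGANTCA, in which N is any base. FOS, FOSB, JUN, JUNB, ATF3, EGR1 and MYC are early response genes, whose transcription rises within minutes of a growth factor or stress through MAP kinases and ready-made factors such as SRF and CREB, and whose messages decay fast. FOSL1 builds up later in a response and is a known AP-1 subunit of mesenchymal-like breast cancer cells, where AP-1 drives collagenases and other genes of invasion. Cells were taken here after 72 h of extract, long after any such first burst.

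Libraries held 16170342 to 31337259 counts, and expression is given as CPM, read counts scaled to a common depth with TMM factors. A single read is far below any value here, since the lowest count of a member in any library was 47 reads. Library E7 stood apart from the other extract libraries of MDA-MB-231, with 10.7% mitochondrial counts beside 4.63% in E8, 4.78% in E9 and 2.76% to 2.87% in the 3 controls, and with Spearman correlations of 0.967 and 0.966 to them, where all other replicate pairs reached at least 0.9968. Results that rest on E7 are therefore also given without it. The members' transcripts ran from 1669 to 6708 nt and from 50.8% to 69.7% GC, and a correction of each library for transcript length and GC content (called the length and GC offset) is given where it changed a call or direction or moved a fold by over 1.5 times. Of 7 epithelial markers, CDH1 and KRT5 had no reads in MDA-MB-231, while KRT8 averaged 472, KRT18 273 and CLDN4 123.4 CPM in its controls, and the 7 summed to 854 to 909 CPM there and 4494 to 4593 CPM in HCC1937 controls. Of 5 mesenchymal markers, VIM averaged 3736 and 13.9 CPM in the controls of MDA-MB-231 and HCC1937, and SPARC 8.64 and 39.1 CPM. In the leukocyte list of 5, CD68 alone passed 1 CPM. The 5 fibroblast markers summed to 22.3 to 31.5 CPM in the controls of both lines and to 4.48 to 9.35 CPM with extract, mostly from COL1A1 and, in HCC1937 controls, LUM, with DCN at 0 in all 12 libraries. The 4 endothelial markers summed to 23.9 to 24.5 CPM in HCC1937 controls, led by PECAM1 and CDH5, and to at most 4.46 CPM in MDA-MB-231. The part of any such signal in the members' changes was not tested. The data are from bulk RNA, in which fewer cells of a type and less RNA per cell cannot be told apart.

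RefSeq promoter windows (GRCh38.p14) were matched by symbol for 8 of the 10 members. Shown here are the bases of the window that lie before both the RefSeq start and the start of the gene in GENCODE. They are given for FOS, FOSB and JUNB, which changed in opposite directions in the lines. JUNB lost its rise in HCC1937 with the length and GC offset. EGR1, which fell in HCC1937 and was not called in MDA-MB-231, is shown as well. JUN also changed in opposite directions but is not shown, because too few bases of its window lay before both starts. Capitals in FOS, FOSB and JUNB mark TGACG, the core of the cAMP response element through which CREB and ATF proteins bind. In EGR1 the capitals mark the same letters read on the other strand (CGTCA) and, in the longer runs, CArG boxes, the sites of SRF. The stretch of JUNB and EGR1 runs up to the RefSeq start, that of FOSB stops 1 base and that of FOS 54 bases before it.
FOS, chr14:75278578-75278773, plus strand: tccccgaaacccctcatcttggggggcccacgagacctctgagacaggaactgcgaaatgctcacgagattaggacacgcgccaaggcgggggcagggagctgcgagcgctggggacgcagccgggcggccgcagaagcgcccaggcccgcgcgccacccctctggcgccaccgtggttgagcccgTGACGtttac
FOSB, chr19:45467746-45467994, plus strand: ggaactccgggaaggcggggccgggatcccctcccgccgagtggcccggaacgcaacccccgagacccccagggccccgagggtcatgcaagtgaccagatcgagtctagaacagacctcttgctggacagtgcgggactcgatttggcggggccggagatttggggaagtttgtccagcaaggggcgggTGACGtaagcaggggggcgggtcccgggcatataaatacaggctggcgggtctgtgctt
JUNB, chr19:12791236-12791485, plus strand: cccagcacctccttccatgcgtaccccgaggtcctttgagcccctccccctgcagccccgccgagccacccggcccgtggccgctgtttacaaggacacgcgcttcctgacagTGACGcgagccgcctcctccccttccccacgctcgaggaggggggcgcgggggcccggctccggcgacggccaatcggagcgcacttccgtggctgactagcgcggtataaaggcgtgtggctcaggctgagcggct
EGR1, chr5:138465229-138465478, plus strand: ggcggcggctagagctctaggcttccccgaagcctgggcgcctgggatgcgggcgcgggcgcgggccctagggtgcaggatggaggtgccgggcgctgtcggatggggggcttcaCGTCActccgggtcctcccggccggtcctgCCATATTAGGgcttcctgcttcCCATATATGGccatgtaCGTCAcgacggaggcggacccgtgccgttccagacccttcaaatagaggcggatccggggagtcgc

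The search covered both strands of the 250 bases before each RefSeq start. TGACG was found in 7 of the 8 members with a window (FOS, FOSB, FOSL2, JUN, JUNB, JUND and EGR1) and in 21.2% of all 35114 windows. The full palindrome TGACGTCA, which contains TGACG on both strands, was found in JUND and in 1.65% of windows. CArG boxes were found in EGR1, at -105 to -96 and -83 to -74 from its start, and in 1.16% of windows. The AP-1 variant TGACATCA was found in JUN and ATF3 and in 2.38% of windows, and the heat shock core GAANNTTC in JUN and in 5.78% of windows. The pattern TGANTCA with any base at N (6.57% of windows), the EGR site GCGGGGGCG (4.72%) and the MYC E-box CACGTG (6.35%) were in no member's window. These matches describe the letters and are not evidence of binding.

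**Figure D1:**
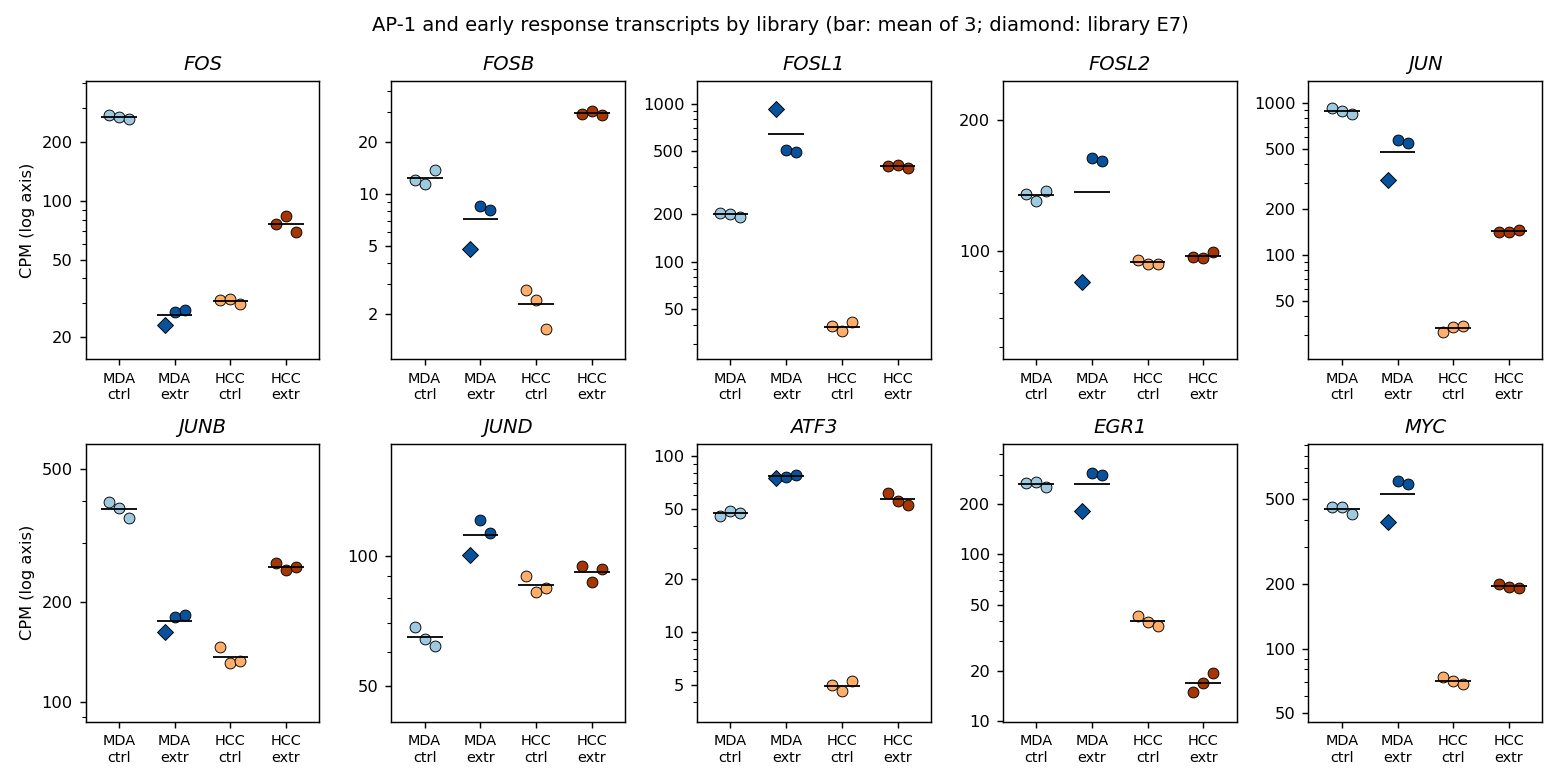
Level of the 10 members in each of the 12 libraries, in CPM on a log axis, by group; points are libraries, bars are means of 3, and the diamond is E7. FOS falls from 261 to 274 CPM in MDA-MB-231 controls to 23.2 to 27.6 CPM with extract and rises from 29.4 to 31.5 CPM to 69.3 to 83.4 CPM in HCC1937, while FOSL1 and ATF3 are higher with extract in every library of both lines.

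With extract, MDA-MB-231 lost most of its FOS message and part of its JUN, JUNB and FOSB, and gained FOSL1, JUND and ATF3. The gains of JUND and ATF3 were not called with the length and GC offset unless E7 was also left out. In MDA-MB-231, 3 members were called higher, 4 lower and 3 were not called, with a median log2 fold change of 0.01. Of all 14133 genes tested, 65.8% were called in this comparison (33% higher and 32.8% lower) around a median of 0.00, so 7 calls among 10 members is close to the background. The groups did not overlap for 7 of the 10 members, beside 67.6% of all genes tested. Without E7, 6 members were called higher and 4 lower, and with the length and GC offset 1 was called higher and 6 lower, or 3 and 6 with the offset and without E7.

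HCC1937 gained 7 of the members with extract (FOS, FOSB, FOSL1, JUN, JUNB, ATF3 and MYC), lost EGR1, and 2 were not called. The median log2 fold change of the members was 1.39, beside -0.16 over all genes tested. Here 71.8% of all genes were called, 32.7% higher and 39.1% lower. The groups did not overlap for 9 of the 10 members, JUND being the exception, beside 82.1% of all genes tested. With the length and GC offset, 6 members were called higher and 2 lower, and the median was 0.68.

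**Figure D2:**
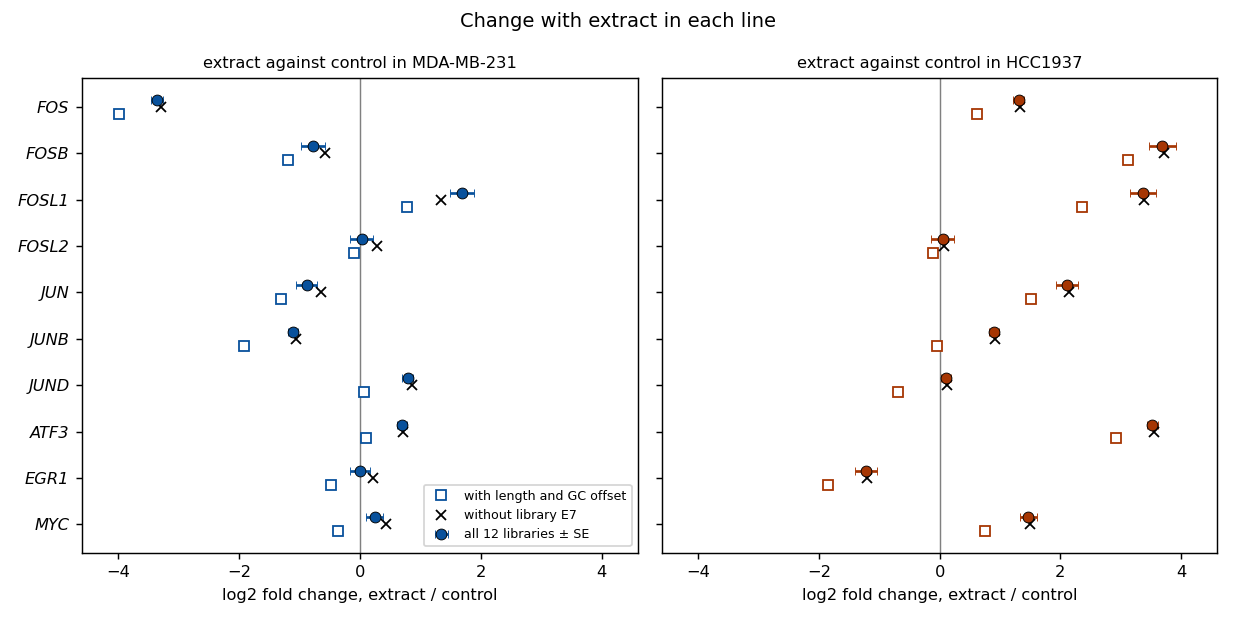
Log2 fold change of extract against control for the 10 members in MDA-MB-231 and HCC1937, with SE bars for the test on all 12 libraries, open squares for the length and GC offset and crosses for the fit without E7. FOS lies at -3.37 in MDA-MB-231 and 1.31 in HCC1937, and the squares lie left of the circles, at lower values, for each member in both lines.

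FOS (gene 2353, GRCh38 chr14:75278774-75282230, plus strand), the founding AP-1 subunit and a classic early response gene, had 274, 269 and 261 CPM in MDA-MB-231 controls and 23.2, 27.05 and 27.6 CPM with extract. Every extract library lay below every control, and the groups were far apart. FOS fell 10.3-fold there (log2 fold change -3.37 ± 0.10 SE, edgeR adjusted p = 4.94e-10), and by 4.00 on the log2 scale with the length and GC offset. In HCC1937 it had 31.2, 31.5 and 29.4 CPM in controls and 75.7, 83.4 and 69.3 CPM with extract. FOS rose in that line, and its groups did not overlap. The rise was 2.48-fold (1.31 ± 0.09, edgeR adjusted p = 1.46e-07), or 0.62 on the log2 scale with the offset. Across groups, FOS ordered as MDA-MB-231 extract, HCC1937 control, HCC1937 extract and MDA-MB-231 control, with no overlap between neighbours.

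FOSB (gene 2354, chr19:45467995-45475179, plus strand), a subunit with a long-lived splice form that outlasts other early response products, held the smallest share of the FOS family in each group. It had 12.2, 11.4 and 13.8 CPM in MDA-MB-231 controls and 4.84, 8.59 and 8.05 CPM with extract. The 3 extract values were all lower, with E7 the lowest. FOSB fell 1.71-fold (-0.78 ± 0.20, edgeR adjusted p = 0.00475), by 0.58 on the log2 scale without E7 and by 1.19 with the length and GC offset. In HCC1937 it had 2.77, 2.44 and 1.65 CPM in controls and 29.2, 30.3 and 29.01 CPM with extract. No control library of HCC1937 came near these levels. FOSB rose 12.9-fold there (3.69 ± 0.22, edgeR adjusted p = 3.36e-08), or 3.12 on the log2 scale with the offset. The order of levels was HCC1937 control, MDA-MB-231 extract, MDA-MB-231 control and HCC1937 extract, with no overlap between neighbours.

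FOSL1 (gene 8061, chr11:65892049-65900573, minus strand), which encodes FRA-1, had 204, 202 and 193 CPM in MDA-MB-231 controls and 927, 509 and 494 CPM with extract. All extract libraries were higher, and E7 was well above E8 and E9. FOSL1 rose 3.22-fold (1.69 ± 0.20, edgeR adjusted p = 1.5e-05), or 1.33 on the log2 scale without E7 and 0.78 with the length and GC offset. HCC1937 controls had 39.0, 36.4 and 41.4 CPM and extract libraries 403, 409 and 390.2 CPM. FOSL1 thus rose in both lines, and from a lower control level in HCC1937. Its rise in HCC1937 was 10.3-fold (3.36 ± 0.21, edgeR adjusted p = 6.1e-08), or 2.35 on the log2 scale with the offset. From low to high, the groups ran HCC1937 control, MDA-MB-231 control, HCC1937 extract and MDA-MB-231 extract, with no overlap between neighbours.

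FOSL2 (gene 2355, chr2:28392448-28417312, plus strand), which encodes FRA-2, had 135, 130.3 and 137 CPM in MDA-MB-231 controls and 84.6, 164 and 161 CPM with extract. E7 lay below the controls and E8 and E9 above them, so the groups overlapped. The log2 fold change was 0.02 ± 0.19 (edgeR adjusted p = 0.931), without E7 it was 0.28 (edgeR adjusted p = 1.07e-06), and with the offset it was -0.10 (edgeR adjusted p = 0.138). In HCC1937, FOSL2 had 95.4, 93.0 and 93.4 CPM in controls and 96.8, 96.2 and 99.4 CPM with extract. The ranges lay side by side without overlap but were close. The log2 fold change was 0.05 ± 0.19 (edgeR adjusted p = 0.82), whose SE carries the spread of E7, because the 4 groups share an estimate of spread. With the offset it was -0.11 (edgeR adjusted p = 0.0967). FOSL2 was the one AP-1 subunit that passed the test in neither line with all 12 libraries.

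JUN (gene 3725, chr1:58780788-58784327, minus strand), the most potent activator of the JUN family and a target of the JNK kinases, had 929, 882 and 849.5 CPM in MDA-MB-231 controls. With extract it had 314, 576 and 550.2 CPM. Every extract library was lower, and E7 was far below the other two. JUN fell 1.85-fold (-0.89 ± 0.18, edgeR adjusted p = 0.00091), by 0.65 on the log2 scale without E7 and by 1.32 with the length and GC offset. HCC1937 controls had 31.3, 34.0 and 34.4 CPM and extract libraries 143, 141 and 147 CPM. JUN rose in HCC1937, yet its extract level stayed below that of every MDA-MB-231 library. The rise was 4.33-fold (2.11 ± 0.18, edgeR adjusted p = 8.53e-07), or 1.52 on the log2 scale with the offset. Levels ordered as HCC1937 control, HCC1937 extract, MDA-MB-231 extract and MDA-MB-231 control, with no overlap between neighbours.

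JUNB (gene 3726, chr19:12791496-12793315, plus strand), an early response subunit that activates less strongly than JUN at single AP-1 sites, had 397, 381 and 357 CPM in MDA-MB-231 controls and 162, 179 and 182 CPM with extract. E7 was close to its replicates for this gene. JUNB fell 2.17-fold (-1.12 ± 0.08, edgeR adjusted p = 2.44e-07), and by 1.92 on the log2 scale with the length and GC offset. In HCC1937 it had 147, 131 and 133 CPM in controls and 261, 249 and 254 CPM with extract. These groups did not overlap either, in the opposite direction. JUNB rose 1.86-fold (0.90 ± 0.08, edgeR adjusted p = 1.04e-06), but with the offset its log2 fold change was -0.04 (edgeR adjusted p = 0.774). From low to high, JUNB ran HCC1937 control, MDA-MB-231 extract, HCC1937 extract and MDA-MB-231 control, with no overlap between neighbours.

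JUND (gene 3727, chr19:18279760-18281622, minus strand), a JUN family member that many cells express without a stimulus, had 68.3, 64.3 and 61.9 CPM in MDA-MB-231 controls and 101, 122 and 113 CPM with extract. Its direction was the opposite of that of JUN and JUNB in the same libraries. JUND rose 1.73-fold (0.79 ± 0.09, edgeR adjusted p = 8.64e-06), but its transcript has the highest GC content of the members (69.7%) and with the length and GC offset the log2 fold change was 0.07 (edgeR adjusted p = 0.713), or 0.27 with the offset and without E7 (edgeR adjusted p = 1.29e-06). In HCC1937, JUND had 89.8, 82.7 and 84.5 CPM in controls and 95.0, 87.1 and 93.6 CPM with extract. Those ranges overlapped. The log2 fold change was 0.10 ± 0.09 (edgeR adjusted p = 0.307) and stayed uncalled in 14 of 20 alternatives. Among the others, it was called without E7 (0.13, edgeR adjusted p = 0.0226) and by DESeq2 (0.20, adjusted p = 0.0216). With the offset it was -0.68 (edgeR adjusted p = 0.000934). JUND varied the least of the JUN family across the 4 groups, whose means ran from 64.8 to 112 CPM.

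Levels can be compared between genes once divided by transcript length, and the makeup of both families is given on that scale (CPM per kilobase). The FOS family of MDA-MB-231 controls was split between FOS, at 46.5 ± 0.06% of the family sum, and FOSL1, at 44.8 ± 0.39% (SD, n = 3). With extract FOSL1 made up 90.9 ± 4.19% and FOS 3.10 ± 1.09%. In HCC1937 controls FOSL1 held 44.7 ± 2.11%, FOS 27.3 ± 1.42% and FOSL2 26.9 ± 0.45%, and with extract FOSL1 held 80.7 ± 0.51% and FOS 11.8 ± 0.74%. FOSL1 was therefore the largest part of the FOS family message in both extract groups, on this scale and also without division by length (77.5% in MDA-MB-231 and 66.4% in HCC1937). Without that division, FOSL2 and not FOSL1 led in HCC1937 controls, with 56.7%.

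The sum of the FOS family was 267 ± 6.04 CPM per kilobase in MDA-MB-231 controls and 419.6 ± 139 in its extract libraries, where E7 was the highest library at 580.1. In HCC1937 the sum was 52.2 ± 1.095 in controls and 298 ± 8.98 with extract. The sum of the JUN family was 493 ± 24.1 CPM per kilobase in MDA-MB-231 controls and 292 ± 51.9 in its extract libraries, beside 131 ± 6.23 and 229.96 ± 5.65 in HCC1937 (SD, n = 3). Per kilobase, the JUN family message exceeded that of the FOS family in both control groups, and the FOS family exceeded it in both extract groups. In MDA-MB-231 extract libraries most of that gap was in E7. Without E7 the sums there were 339 for the FOS family and 321 for the JUN family, and without division by length the JUN family was the larger in E8 and E9 (861 against 699 CPM on average). JUN and JUNB shared the JUN family in MDA-MB-231 controls, at 50.8% and 42.1%, with JUND at 7.06%. With extract, JUND reached 20.9 ± 2.18%. In HCC1937, JUNB led in controls (57.6 ± 0.87%) and with extract (60.9 ± 0.45%), while JUN went from 7.21 ± 0.69% to 17.7 ± 0.37% and JUND from 35.2 ± 0.19% to 21.4 ± 0.47%. These shares were not corrected for GC content.

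**Figure D3:**
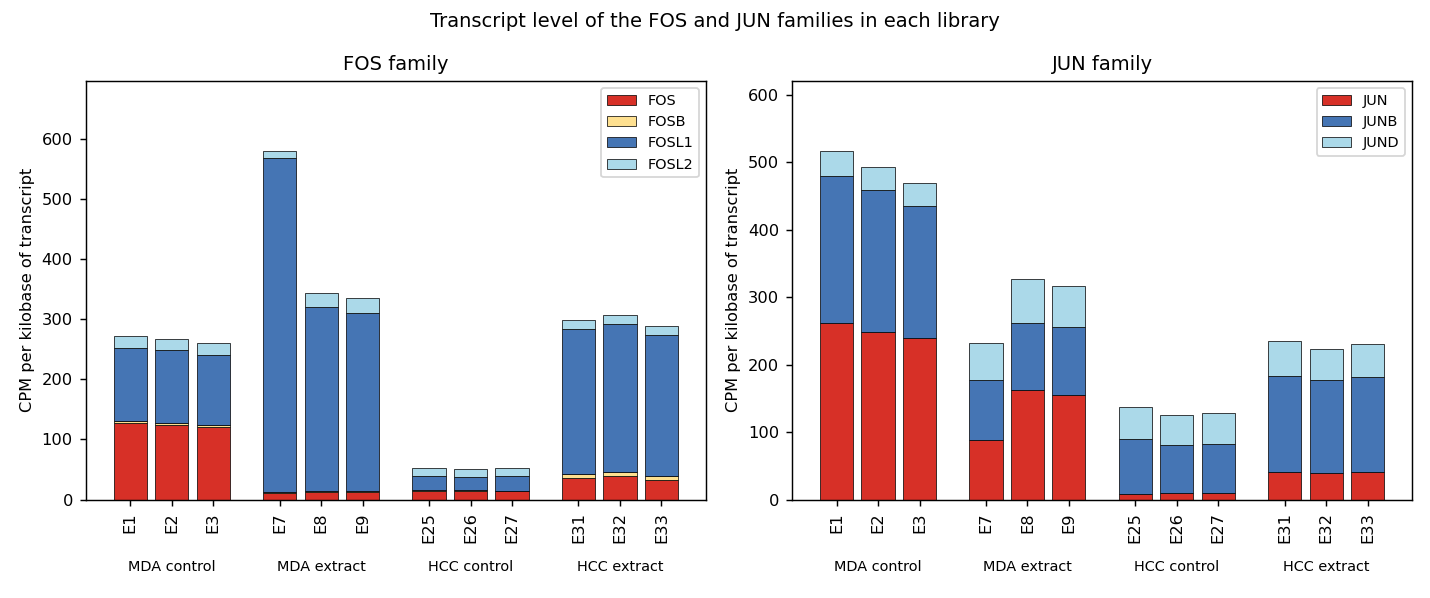
Level of the FOS family (left) and JUN family (right) in each library, in CPM per kilobase of transcript, stacked by gene. FOSL1 takes most of each FOS family bar in the extract libraries of both lines, and the JUN family bars are shorter with extract in MDA-MB-231 (292 against 493 on average) and taller in HCC1937 (229.96 against 131).

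ATF3 (gene 467, chr1:212565334-212620777, plus strand), a bZIP factor that many kinds of stress induce and that can pair with JUN proteins, had 45.7, 48.9 and 47.6 CPM in MDA-MB-231 controls and 75.5, 76.0 and 78.5 CPM with extract. E7 matched its replicates here, and the groups did not overlap. ATF3 rose 1.62-fold (0.69 ± 0.08, edgeR adjusted p = 1.41e-05), but with the length and GC offset the log2 fold change was 0.10 (edgeR adjusted p = 0.376), or 0.19 with the offset and without E7 (edgeR adjusted p = 0.00643). HCC1937 controls had 4.95, 4.62 and 5.24 CPM and extract libraries 61.8, 55.6 and 53.0 CPM. ATF3 thus went from a few CPM to a level close to that in MDA-MB-231. It rose 11.5-fold (edgeR adjusted p = 7.33e-10), or 2.92 on the log2 scale with the offset. HCC1937 control was lowest, followed by MDA-MB-231 control, HCC1937 extract and MDA-MB-231 extract, with no overlap between neighbours.

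EGR1 (gene 1958, chr5:138465490-138469315, plus strand), a zinc finger early response factor driven by SRF and ELK proteins, had 271, 271 and 255 CPM in MDA-MB-231 controls and 183, 309 and 302 CPM with extract. E7 lay below the controls and the other two above, so the groups overlapped. The log2 fold change was -0.0035 ± 0.17 (edgeR adjusted p = 1), 0.21 without E7 (edgeR adjusted p = 0.000933) and -0.48 with the length and GC offset (edgeR adjusted p = 0.00336), so both its direction and its call changed between these settings. In HCC1937, EGR1 had 42.6, 39.1 and 36.9 CPM in controls and 14.8, 16.8 and 19.2 CPM with extract. With all 12 libraries and no offset, EGR1 was the one member called lower in HCC1937 (JUND was called lower there with the offset). No extract library of EGR1 reached a control. The fall was 2.33-fold (-1.22 ± 0.18, edgeR adjusted p = 6.57e-05), and with the offset the log2 fold change was -1.85. In order, EGR1 was lowest with HCC1937 extract, then HCC1937 control, and highest in the MDA-MB-231 groups, which overlapped.

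MYC (gene 4609), an early response factor that raises transcription of ribosome and metabolic genes with its partner MAX, had 462, 458 and 426 CPM in MDA-MB-231 controls and 391, 607 and 592 CPM with extract. As for EGR1 and FOSL2, E7 was below the controls and E8 and E9 above. The log2 fold change was 0.24 ± 0.14 (edgeR adjusted p = 0.143), 0.42 without E7 (edgeR adjusted p = 1.54e-10) and -0.37 with the length and GC offset (edgeR adjusted p = 0.0294), so its direction depended on the correction. HCC1937 controls had 74.0, 70.4 and 68.3 CPM and extract libraries 200.5, 194 and 193 CPM. MYC rose in this line in every library. The rise was 2.76-fold (1.47 ± 0.14, edgeR adjusted p = 1.86e-06), or 0.75 on the log2 scale with the offset. MYC ordered as HCC1937 control, HCC1937 extract and then the MDA-MB-231 groups, which overlapped.

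Whether the extract effect differed between the lines was tested as the difference of log2 fold changes, HCC1937 minus MDA-MB-231. It was called for 9 of the 10 members, 7 higher and 2 lower, where 32.1% of all genes were called (11.5% higher and 20.6% lower). The members' median difference was 1.84, beside -0.16 for all genes tested. FOS differed most (4.68 ± 0.14, edgeR adjusted p = 1.9e-09), followed by FOSB (4.47 ± 0.29, edgeR adjusted p = 1.45e-06), JUN (3.00 ± 0.26, edgeR adjusted p = 9.78e-06), ATF3 (2.83 ± 0.12, edgeR adjusted p = 5.3e-08) and JUNB (2.01 ± 0.11, edgeR adjusted p = 4.83e-07). The 4 genes FOS, FOSB, JUN and JUNB fell in MDA-MB-231 and rose in HCC1937, with JUNB losing its rise under the offset. FOSL1 (1.68 ± 0.28) and MYC (1.23 ± 0.20) differed in the same direction. JUND (-0.69 ± 0.12) and EGR1 (-1.22 ± 0.25) differed in the other. FOSL2 did not pass (0.03 ± 0.27, edgeR adjusted p = 0.978), and without E7 its difference was -0.20 (edgeR adjusted p = 0.00345).

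The length and GC offset left these differences nearly as they were (4.61 for FOS, 1.88 for JUNB, -0.75 for JUND), and the same counts of 7 higher and 2 lower were called. Scaling by RLE instead of TMM moved the median over all genes in this comparison from -0.16 to -0.05, and the calls over all genes from 1630 higher and 2909 lower to 2042 higher and 2315 lower. Under RLE the members again gave 7 higher and 2 lower, from 4.79 for FOS to -1.105 for EGR1.

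Without extract, HCC1937 held less of 9 members than MDA-MB-231 and more of JUND. Across all genes 75.3% were called between the controls (38.7% higher and 36.7% lower in HCC1937), and the members' median log2 fold change was -2.55 beside 0.04 for all genes. The control groups did not overlap for any of the 10 members, beside 88.3% of all genes not overlapping. The widest gap was that of JUN, 26.7-fold lower in HCC1937 (-4.74 ± 0.21, edgeR adjusted p = 1.89e-09). ATF3 (9.60-fold), FOS (8.72-fold), EGR1 (6.72-fold) and MYC (6.33-fold) were lower as well, and so were FOSB (5.46-fold), FOSL1 (5.13-fold) and JUNB (2.77-fold). FOSL2 was 1.43-fold lower (-0.51 ± 0.19, edgeR adjusted p = 0.0272). That call was lost without any 1 of the 6 control libraries (adjusted p from 0.0504 to 0.0669), in fits that kept E7. Without E7 the log2 fold change of FOSL2 was -0.55 (edgeR adjusted p = 3.2e-13), and with the offset it was -0.81 (edgeR adjusted p = 2.36e-08). JUND was 1.32-fold higher (0.40 ± 0.09, edgeR adjusted p = 0.00127), and with the offset its log2 fold change was -0.15 (edgeR adjusted p = 0.33).

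With extract in both lines, 3 members were higher in HCC1937 and 7 lower, at a median of -0.46, where 73.8% of all genes were called (34.1% higher and 39.7% lower). The extract groups did not overlap for 9 of the 10 members, FOSL2 being the exception, beside 72.3% of all genes. FOS and FOSB, lower in HCC1937 controls, were now higher in HCC1937, 2.93-fold (1.55 ± 0.09, edgeR adjusted p = 3.16e-08) and 4.05-fold (2.02 ± 0.20, edgeR adjusted p = 2.12e-06). JUNB was 1.46-fold higher (0.55 ± 0.08, edgeR adjusted p = 6.69e-05), and 0.08 on the log2 scale with the offset (edgeR adjusted p = 0.552). ATF3, apart by 9.60-fold between controls, was 1.35-fold lower in HCC1937 with extract (-0.43 ± 0.08, edgeR adjusted p = 0.000451). EGR1 was 15.6-fold lower (-3.97 ± 0.19, edgeR adjusted p = 5.54e-09), a wider gap than between the controls. JUN (3.34-fold), MYC (2.71-fold), FOSL1 (1.604-fold) and JUND (1.22-fold) were lower too, JUND by 0.28 on the log2 scale and by 0.90 with the offset. The gap of FOSL1 was -0.68 on the log2 scale with E7 and -0.34 without it, and that of FOSL2 was -0.49 (edgeR adjusted p = 0.0355) and -0.75. The FOSL2 call was lost without E8, E9, E31, E32 or E33 (adjusted p from 0.0622 to 0.135). It was kept without E7 (edgeR adjusted p = 2.07e-15) and with the offset (-0.82, edgeR adjusted p = 2.4e-08). These comparisons share libraries with those above and are not independent of them.

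Other early response genes were read from a list of 28 tested genes. The counts of this and the following lists stand beside 65.8% of all genes called in MDA-MB-231 (median 0.00) and 71.8% in HCC1937 (median -0.16). In HCC1937, 21 rose and 1 fell (median 1.09), and in MDA-MB-231 9 rose and 13 fell (median -0.25). With the offset 18 rose and 4 fell in HCC1937 (median 0.64), and 8 rose and 15 fell in MDA-MB-231 (median -0.67). The difference between the lines was called higher for 16 and lower for 2 (16 and 3 with the offset), where 32.1% of all genes were called. GADD45B, a stress sensor that binds MAP kinase kinases, fell in MDA-MB-231 (-1.21 ± 0.08, edgeR adjusted p = 7.23e-08) and rose in HCC1937 (1.68 ± 0.08, edgeR adjusted p = 5.72e-09), at -2.03 and 0.64 with the offset. TRIB1, a pseudokinase, did the same (-1.48 and 1.09). ZFP36, which destroys AU-rich messages such as that of FOS, fell by 1.77 on the log2 scale in MDA-MB-231 (by 2.54 with the offset) and rose by 0.42 in HCC1937, where it was -0.51 with the offset. SGK1, a kinase of salt balance and survival, rose in both lines (0.52 and 2.55), as did CCN2, a matricellular growth factor target (1.98 and 1.17, or 0.58 in HCC1937 with the offset). Between the controls, 24 of these 28 genes were lower in HCC1937 and none was called higher, where 75.3% of all genes were called and 36.7% were lower.

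Of the other bZIP partners, 18 were tested, and 7 rose and 6 fell in MDA-MB-231 while 8 rose and 5 fell in HCC1937. With the offset the counts were 4 higher and 7 lower in MDA-MB-231 and 5 higher and 4 lower in HCC1937. JDP2, which pairs with JUN and represses, rose in MDA-MB-231 (2.12 ± 0.12, edgeR adjusted p = 3.66e-08) and fell in HCC1937 (-0.47 ± 0.11, edgeR adjusted p = 0.00268). ATF2, a JUN partner at cAMP response elements, fell in both (-1.79 and -2.07), and by less with the offset (-0.49 and -0.34). MAFF, a small MAF protein, rose in both (0.88 and 1.29, or 0.25 and 0.47 with the offset). BACH1, a repressor of antioxidant genes, fell in both (-2.44 and -1.91), and the offset gave -0.98 for MDA-MB-231 and -0.15 for HCC1937 (edgeR adjusted p = 0.247 for the latter).

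The MAP kinase and SRF list, the inputs of early response genes, had 23 tested genes, of which 7 rose and 10 fell in MDA-MB-231 and 9 rose and 13 fell in HCC1937. With the length and GC offset the balance turned to 10 higher and 7 lower in each line. MAP2K3, which activates p38 kinases, rose in both (1.28 and 2.18, or 0.62 and 1.33 with the offset). ELK4, an SRF partner, fell in both (-1.86 and -2.04), but was 0.02 and -0.01 with the offset. CREB1 turned from -1.46 and -1.69 to 0.58 and 0.51 with the offset.

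Among AP-1 target genes, 18 of 20 were tested, and 10 rose and 2 fell in MDA-MB-231 (median 0.57) while 15 rose and 1 fell in HCC1937 (median 1.09). With the offset these counts were 8 and 6 in MDA-MB-231 and 13 and 1 in HCC1937. MMP1, the interstitial collagenase, rose 1.18 ± 0.08 in MDA-MB-231 (edgeR adjusted p = 2.12e-07) and 5.88 ± 0.10 in HCC1937 (edgeR adjusted p = 3.65e-11), from 6.39 to 376 CPM. CCND1, which encodes cyclin D1, rose in both (1.37 and 0.55), as did the cytokine IL6 (1.92 and 0.95) and the sphingosine kinase SPHK1 (0.99 and 3.27, or 0.25 and 2.40 with the offset). HMGA1, an architectural chromatin protein, rose in HCC1937 (1.91 ± 0.08, edgeR adjusted p = 3.86e-09), by 1.02 with the offset. In MDA-MB-231, HMGA1 had 0.18 (edgeR adjusted p = 0.0565), the same without E7 (edgeR adjusted p = 4.52e-06), and -0.56 with the offset (edgeR adjusted p = 2.38e-06).

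Of 11 tested EGR1 targets and corepressors, 6 rose and 3 fell in MDA-MB-231, and 3 rose and 4 fell in HCC1937. With the offset the counts were 5 higher and 4 lower in MDA-MB-231 and 3 higher and 6 lower in HCC1937. F3, the tissue factor gene, rose in MDA-MB-231 (2.64 ± 0.07, edgeR adjusted p = 4.41e-10) and fell in HCC1937 (-0.81 ± 0.07, edgeR adjusted p = 6.62e-07). NAB1, a corepressor of EGR1, fell in both (-1.86 and -2.34, or -0.89 and -0.95 with the offset). Of 15 stress genes that share the inputs of ATF3, 12 rose in MDA-MB-231 and none was called lower, and 9 rose and 2 fell in HCC1937. Without E7 1 was called lower in MDA-MB-231, and with the offset the counts were 9 higher and 3 lower there and 5 higher and 4 lower in HCC1937. CHAC1, a glutathione-degrading enzyme of the ATF4 response, rose more in MDA-MB-231 (3.50 ± 0.12, edgeR adjusted p = 1.28e-09, or 2.68 with the offset) than in HCC1937 (0.99 ± 0.11, edgeR adjusted p = 5.78e-06), where it was 0.03 with the offset, and the difference was -2.50 (edgeR adjusted p = 1.14e-06). TRIB3 (1.46 and 1.79, or 0.81 and 0.97 with the offset) and ATF5 (1.92 and 2.70, or 1.18 and 1.79) rose in both.

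Of 19 tested MYC targets, 14 rose and 2 fell in MDA-MB-231 (median 1.33), and 16 rose and 3 fell in HCC1937 (median 1.47). ODC1, the first enzyme of polyamine synthesis, rose in both (1.65 and 2.70), and so did the ribosome assembly genes BOP1 (2.10 and 2.45, or 1.38 and 1.64 with the offset) and RRS1 (2.17 and 1.65, or 1.43 and 0.73). With the offset 13 rose and 1 fell in MDA-MB-231, and 17 rose and 2 fell in HCC1937. The medians were then 0.96 and 1.17, in MDA-MB-231 beside a MYC log2 fold change of -0.37. Among 12 tested MYC network partners 5 rose and 5 fell in MDA-MB-231 and 5 rose and 3 fell in HCC1937, or 4 and 6 and then 5 and 5 with the offset. MAX rose in both (1.55 and 0.58), and MXD1, a MAX partner that opposes MYC, fell in both (-1.14 and -1.65, or -0.41 and -0.60 with the offset). Of 15 genes for the turnover of early transcripts and proteins, 3 rose and 7 fell in MDA-MB-231 and 4 rose and 6 fell in HCC1937. With the offset the counts were 4 higher and 6 lower in MDA-MB-231 and 5 higher and 6 lower in HCC1937. FBXW7, the ubiquitin ligase subunit that marks JUN and MYC, fell in both (-0.95 and -1.21), and ELAVL1, which stabilises AU-rich messages, rose in both (0.96 and 0.96).

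**Figure D4:**
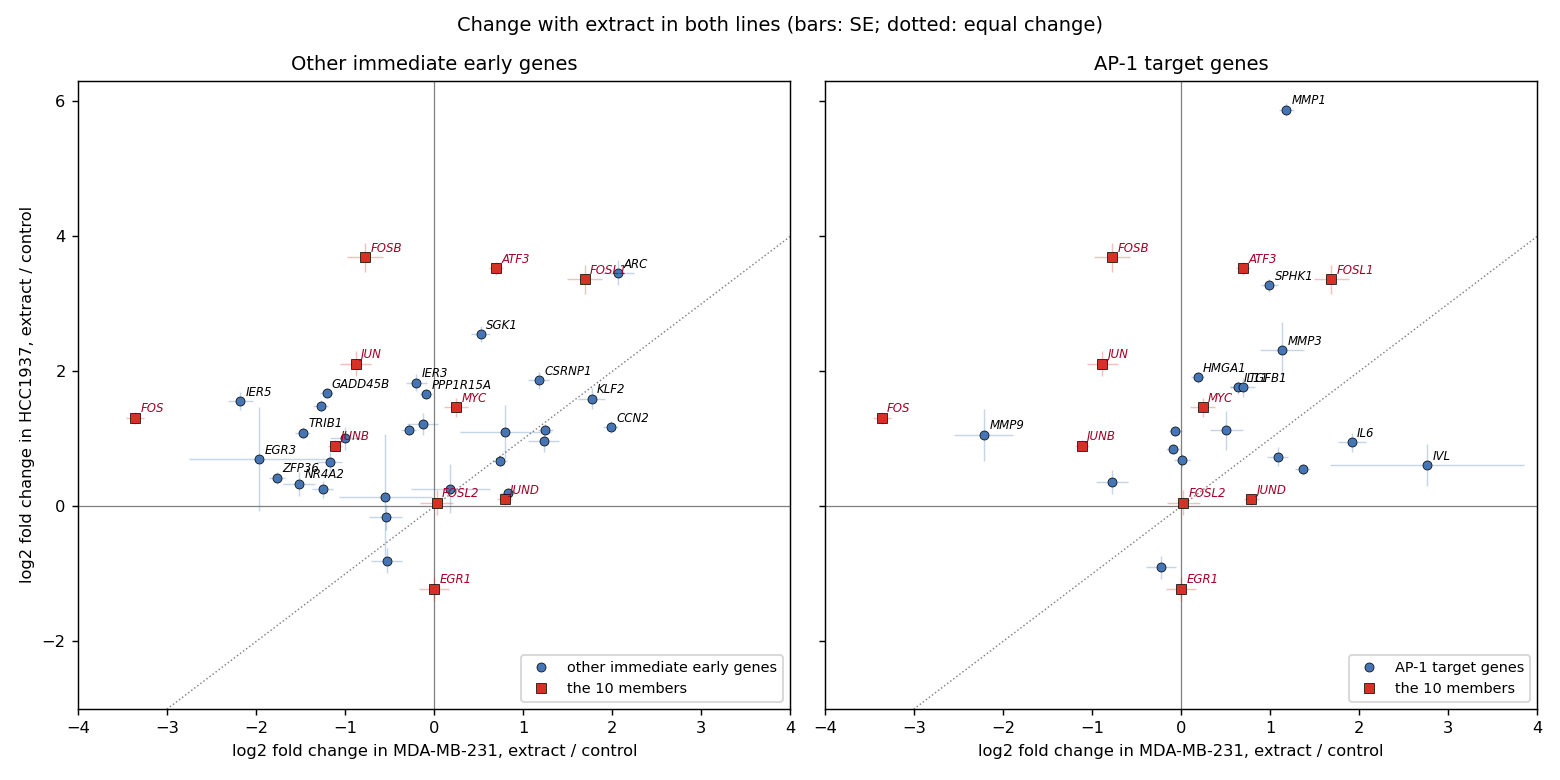
Log2 fold change with extract in MDA-MB-231 (horizontal) against HCC1937 (vertical) for the members (squares) with the other early response genes (left, circles) and the AP-1 target genes (right, circles), with SE bars; the dotted line marks equal change, and SPRR1B, which had no reads in MDA-MB-231, is left out. FOS (-3.37, 1.31), FOSB, JUN and JUNB lie left of 0 and above it, and MMP1 is the highest target at 5.88.

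The pattern of each member over the 12 libraries was compared with that of 10835 genes of at least 5 CPM on average, as Pearson's r of log2 CPM. The libraries fall into 4 groups, so the 12 points are not independent, and r is given as a description. FOS was most like DNAJB1, the inducible HSP40 co-chaperone (r = 0.996), which averaged 1827, 233, 240.2 and 645 CPM in MDA-MB-231 control, MDA-MB-231 extract, HCC1937 control and HCC1937 extract. JUNB was most like HSPA8, the constitutive HSP70 (r = 0.983), and the collagen chaperone gene SERPINH1 (r = 0.977). JUN was most like SPRY4, a feedback inhibitor of receptor tyrosine kinase signalling (r = 0.999), which averaged 571, 261, 8.06 and 49.0 CPM in the same order. FOSL1 followed PPME1 (r = 0.997), FOSL2 MAML1 (r = 0.988) and JUND MUTYH (r = 0.976). ATF3 followed TUBB3 (r = 0.992), EGR1 TBC1D1 (r = 0.997) and MYC DDX24 (r = 0.991). Among the members themselves, JUN and MYC were closest (r = 0.968), then FOSL1 and ATF3 (r = 0.960) and FOS and JUNB (r = 0.946), while FOS and JUND ran opposite (r = -0.83).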

How the data were processed

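The authors deposited 1 table of expected counts (estimated reads per gene, not scaled) for the 12 libraries, and the submitters' processing notes name FastQC 0.12.1, fastp 0.23.4, Salmon 1.10.3, DESeq2, R 4.4.1 and GRCh38. No source used here gives the annotation release or the step from transcripts to genes. Of the values, 52.8% were not whole, and all were rounded. The labels name a kit for total RNA but capture on poly-T beads, and groups were read from sample titles, because the cell line field varies between replicates of a group.

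The rounded counts were tested with edgeR 4.0.16 (R 4.3.3): filterByExpr (14133 of 19516 genes tested), TMM scaling, 1 model of 4 groups and the quasi-likelihood F test, with Benjamini-Hochberg adjustment over all genes tested and calls at an adjusted p under 0.05. Adjusted p-values in the text are from this test unless another tool is named. After TMM, a change is relative to the rest of a library, so a change in total RNA per cell would not show. In the depth of each library, 3 counts stand for 0.0990 to 0.213 CPM, counting error only. The offset used length and GC of the longest protein-coding transcript (GENCODE release 29, 99.4% of tested genes), fitted per library with mgcv 1.9.3, and GENCODE also gave gene coordinates. Alternatives were RLE scaling, DESeq2 1.42.0, voom with quality weights in limma 3.58.1, other filters, the offset, each library left out and each line alone. The code was also run on simulated counts with the same spread in every library, a setting that does not cover a library such as E7.

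The members, lists and tests were chosen with earlier results of these data known. Named genes are the 10 members, up to 3 genes per list and line with the smallest p, and for each member the genes closest in pattern (log2 CPM, prior count 2); of these the text gives a part.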

Additional observations from a re-analysis of the deposited data

Results flagged for a closer look

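The extract effect differed between HCC1937 and MDA-MB-231, by the test of the difference itself, for 9 of the 10 members (edgeR, log2 fold change in HCC1937 minus that in MDA-MB-231). The difference was 4.68 for FOS, 4.47 for FOSB, 3.00 for JUN, 2.83 for ATF3, 2.01 for JUNB, 1.68 for FOSL1 and 1.23 for MYC, all higher in HCC1937. It was -0.69 for JUND and -1.22 for EGR1. Each of these 9 kept its direction and its call in all 19 alternatives run for it. Line, culture medium and extract concentration cannot be told apart as the source of these differences.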

How the results depend on the processing

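No paired analysis was possible because the library numbers of the groups are not shared. In MDA-MB-231 the count of members called higher, 3, was 6 with voom and sample weights and 1 with the length and GC offset, and 3 to 6 with a library left out, the 6 being without E7, whose weight in voom was 0.0302. In HCC1937 the count called lower, 1, was 2 with the offset and 3 with the offset and without E7. Between controls the count called higher, 1, was 0 with the offset, with and without E7. Where a value passed the test in at least 1 of the settings compared, directions turned as follows, and the cause was not tested. In MDA-MB-231, EGR1 was 0.19 with voom and -0.13 to 0.21 with a library left out, and MYC was -0.37 with the offset and -0.18 with the offset and without E7. In HCC1937 with the offset, JUNB was -0.0438 and JUND -0.68, and with the offset and without E7 FOSL2 was -0.15, JUNB -0.0324 and JUND -0.69. The FOSL2 difference between the lines was -0.22 with voom and -0.20 to 0.20 with a library left out. JUND between controls was -0.15 with the offset and -0.13 with the offset and without E7, and JUNB between extract groups was -0.12 with the offset and without E7. Turns that never passed the test include FOSL2 in MDA-MB-231 (-0.0977 with the offset, -0.0343 with the strict filter, -0.1222 without E8) and in HCC1937 (-0.1092 with the offset). The biological coefficient of variation was 0.296 in MDA-MB-231 extract libraries and 0.0415 to 0.0451 in the other groups. The main test shares an estimate of spread per gene over the 4 groups, so its SEs and p-values do not show this difference. For FOSL2, the SE was 0.19 in both lines. For any member, they can be too narrow for MDA-MB-231 extract and too wide in HCC1937 and between the controls.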
